A study of Saccharomyces cerevisiae with 11 samples.

Results

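Auxin-treated OsTIR1 cells were set against cells without OsTIR1 at light digestion with micrococcal nuclease (MNase) in 5 of the 11 libraries of the series. The libraries were grouped by the names of the deposited files: 2 from the OsTIR1 strain with auxin, 1 from the OsTIR1 strain without auxin, which served as a point between them, and 2 from the strain without OsTIR1. All were made from budding yeast (Saccharomyces cerevisiae, BY4742 background) grown in galactose, in which the topoisomerases Top1 and Top2 both carried an auxin-inducible degron (AID). Strain yTL1290 also carried OsTIR1 under the ADH1 promoter (pADH1-OsTIR1) and, where treated, received 500 uM auxin for 60 min. Strain yTL1245 lacked OsTIR1, and its labels give no auxin. Strain and auxin therefore changed together and cannot be told apart, and the untreated yTL1290 library, with no replicate, is the only light library that separates them. Per the labels' protocols, fixed spheroplasts were digested with 0.01171875 U (light) or 0.1875 U (heavy) of MNase.

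Both auxin libraries carried labels that went against their file names. The auxin library of culture A (A and B are the letters in the file names) was labelled as untreated and heavily digested, and that of culture B as auxin-treated and heavily digested. The other 3 libraries were labelled as their files were named. The measured digestion of the 2 auxin libraries lay with the light ones. Their mean fragment lengths were 162.2 and 150.1 bp, against 149.8 bp in the untreated and 161.1 and 160.3 bp in the no-OsTIR1 libraries, while the heavy groups averaged 129.2 to 136.9 bp. Mitochondrial DNA made up 3.41 and 7.97% of the fragments in the auxin, 8.70% in the untreated and 5.53 and 20.6% in the no-OsTIR1 libraries, against group means of 0.102 to 0.274% in the 6 heavy libraries. No value in the files showed whether Top1 and Top2 were degraded, so the culture A library was taken as auxin-treated from its file name. Its correlations with other light libraries are given below with the promoters. The body of HIS3, a histidine synthesis gene, had a relative coverage of 0 in the 2 auxin and the untreated library, against 0.268 and 0.21 in the no-OsTIR1 libraries. The ADH1 promoter, a second copy of which drives OsTIR1, had 2.32 and 1.88 in the auxin libraries and 1.76 in the untreated one, against 1.04 and 0.912 in the no-OsTIR1 libraries. Both values set the 3 yTL1290 libraries apart from the 2 of yTL1245.

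Relative coverage is the number of fragments over a base divided by the mean of that library across its nuclear DNA, ribosomal DNA left out. It has no absolute scale, so more coverage at one place is balanced by less elsewhere. The light libraries held 9220720 and 16067852 fragments with auxin, 15852569 untreated and 18268564 and 13798850 without OsTIR1.

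MNase cuts between nucleosomes, and heavy digestion destroys those that hold DNA loosely. Light digestion leaves these fragile particles at promoters and gene ends, where they add to the coverage. Topoisomerases relax the supercoils that transcription builds up, negative behind the polymerase and positive ahead of it. Top1 nicks one strand, and Top2 passes one duplex through another.

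The auxin libraries had less coverage at promoters and gene ends, relative to gene bodies, than the no-OsTIR1 libraries. The log2 ratio of mean promoter coverage (250 bp upstream of the start codon) to mean body coverage (the whole ORF) was 0.508 and 0.528 with auxin, 0.675 untreated, and 0.753 and 0.908 without OsTIR1. Both auxin libraries lay below both no-OsTIR1 libraries, with the untreated library between them. The means were 0.518 ± 0.014 with auxin and 0.831 ± 0.11 without OsTIR1 (SD, n = 2 each), a difference of -0.313. The same ratio for gene ends (250 bp downstream of the stop codon) was 0.502 and 0.473 with auxin, 0.668 untreated, and 0.724 and 0.923 without OsTIR1, a difference of -0.336. In heavy digestion the promoter ratio averaged -0.364 with auxin, -0.346 untreated and -0.297 without OsTIR1, so all groups there had less coverage at promoters than in bodies.

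**Figure D1:**
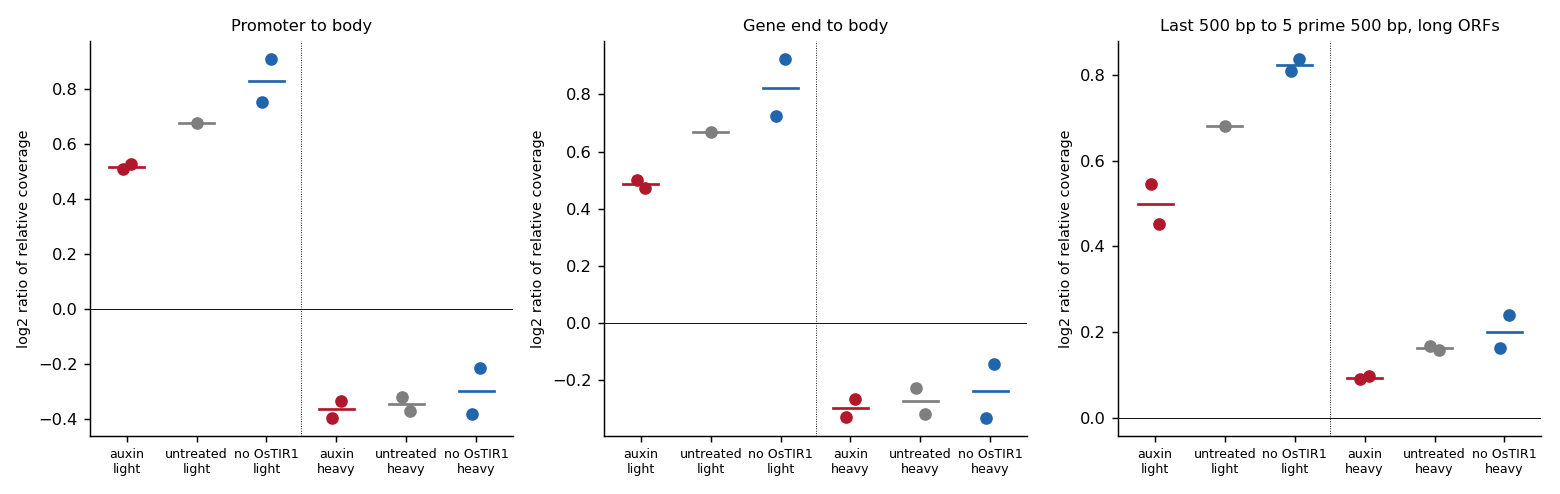
Log2 ratios of relative coverage per library (points; bars are group means) for promoters over bodies, gene ends over bodies, and the last 500 bp over the 500 bp that start 500 bp into ORFs of at least 2000 bp, in the light (left of the dotted line) and heavy libraries. The 2 auxin light libraries lie below the untreated and both no-OsTIR1 light libraries in every panel.

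The mean profile over 5962 ORFs was also lower at promoters and gene ends with auxin than without OsTIR1. The lowest point within 300 bp upstream of the start codon was 1.087 and 1.168 with auxin, 1.222 untreated, and 1.278 and 1.427 without OsTIR1. The highest point within 300 bp downstream of the stop codon was 1.331 and 1.332 with auxin, 1.461 untreated, and 1.503 and 1.707 without OsTIR1. Its position differed: 14 and 185 bp with auxin (cultures A and B), 161 bp untreated, and 207 and 164 bp without OsTIR1. The near-equal auxin values are therefore not from the same place. The groups did not overlap at either point. Along the 1310 longest ORFs (2000 bp or more), the ratio of the 3 prime 500 bp to the 5 prime stretch shown in the plot of library ratios was, as a log2 value, 0.547 and 0.452 with auxin, 0.681 untreated, and 0.808 and 0.836 without OsTIR1, a difference of -0.323. For these values, and for the GAL10-GAL1 gap below, a two-sided exact permutation test of 2 against 2 libraries gave p = 0.3333, the smallest it can give, and 0.3333 after Benjamini-Hochberg adjustment over the 6 tests. The design cannot reach 0.05, and nothing in the labels says the 2 libraries of a group came from separate cultures other than the letters in the file names.

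**Figure D2:**
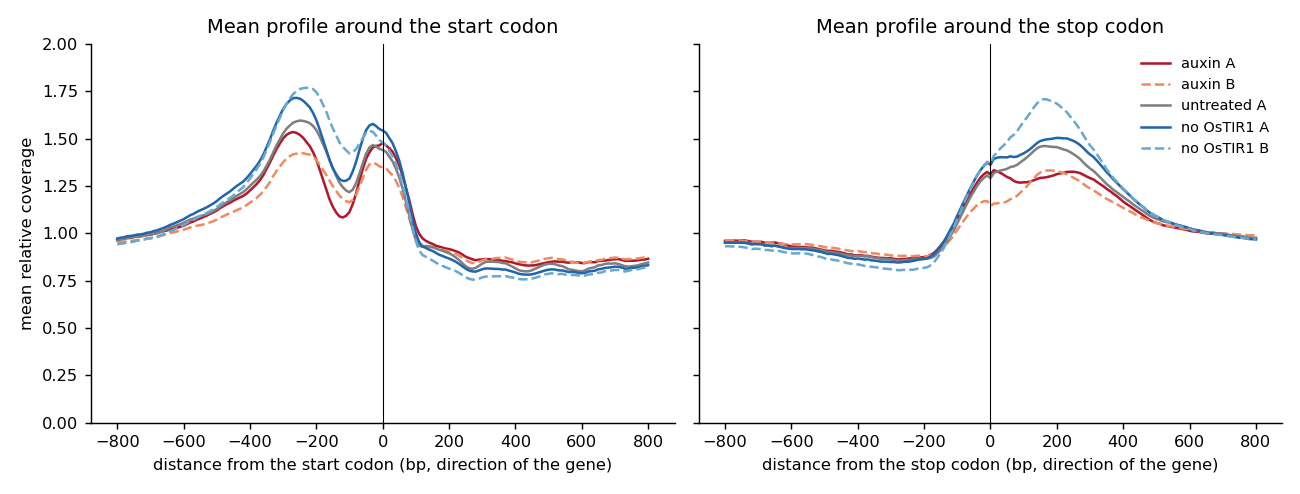
Mean relative coverage (y axis) of 5962 ORFs by distance from the start codon (left) and the stop codon (right) in the 5 light libraries. Upstream of the start codon the highest point was 1.533 and 1.423 with auxin, 1.595 untreated, and 1.714 and 1.768 without OsTIR1.

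An index of digestion differed in the same direction. It was built from the coverage of the no-OsTIR1 libraries, where 0 is their light mean and 1 their heavy mean. The auxin libraries stood at 0.386 and 0.388, the untreated at 0.165 and the no-OsTIR1 libraries at 0.0817 and -0.0817. The index reads the same coverage as the results here, so it is no independent measure of digestion. Over all 11 libraries, limma by group alone called 30 promoters higher and 207 lower with auxin, and 92 gene ends higher and 956 lower. A fit added after seeing the data used the same 11 libraries with the index as a covariate. It pooled the light and heavy libraries of each state, so here and below its contrast is not the light one alone. The index and the pooling changed together. This fit called 112 promoters higher and 3 lower, and 112 gene ends higher and 5 lower. Auxin state and the progress of digestion cannot be told apart in these libraries. Mean fragment length did not follow the index, since the auxin library of culture A had the longest fragments of the 5.

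No single promoter passed the threshold in the fit by group to the 5 light libraries, and the count depended on the fit. Limma on log2(relative coverage + 0.1), adjusted by Benjamini-Hochberg over 5958 promoters, called 0 (0% higher and 0% lower of all tested), with 991 at an unadjusted p under 0.05, of which 914 were lower with auxin. The median change was -0.19. Both auxin libraries lay below both no-OsTIR1 libraries at 2697 promoters, which is 45.3% of those tested, and above them at 427, which is 7.17%. Across promoters, which are not independent replicates, the auxin library of culture A correlated best with the no-OsTIR1 library of culture A (r = 0.816). Its r was 0.680 with the untreated library and 0.643 with the auxin library of culture B. Gene ends had the same order (0.810, 0.728 and 0.711). Bodies did not. There r was highest with the auxin library of culture B (0.905), against 0.832 with the no-OsTIR1 library of culture A and 0.805 with the untreated one. What these correlations say of its auxin state was not tested. With a block by culture letter, limma called 140 promoters higher and 1478 lower, but no label says that the letters mark a shared batch.

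The 5 promoters with the lowest p all had higher coverage with auxin, and none passed the threshold (adjusted p = 0.269 each, limma). RPS8B, a protein of the small ribosomal subunit, had 0.747 and 0.752 with auxin, 0.35 untreated and 0.367 and 0.295 without OsTIR1. The ADH1 promoter, given above, is also part of the OsTIR1 construct. JIP3 had 0.529 and 0.527 with auxin, 0.345 untreated and 0.247 and 0.23 without OsTIR1, and RDT1 and VAM10 changed by 0.93 and 0.96 on the log2 scale. Promoter windows were not cut at neighbouring or overlapping ORFs. A promoter value can therefore hold body coverage of another gene, and these promoters were not checked for it.

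Gene ends showed 1 call of 5962. The end of RPS28B (chromosome XII, ORF 673131 to 673334, build sacCer3), another protein of the small ribosomal subunit, had 0.808 and 0.769 with auxin, 0.27 untreated and 0.302 and 0.271 without OsTIR1. It was higher by 1.20 ± 0.17 (log2, SE; limma adjusted p = 0.0206), which is 0.0168% of the ends tested. At an unadjusted p under 0.05 there were 1614, of which 1488 were lower with auxin, and the median change of all ends was -0.22. Both auxin libraries lay below both no-OsTIR1 libraries at 3117 ends (52.3%) and above at 499 (8.37%). After RPS28B the lowest p, at an adjusted 0.103 that misses the threshold, went to CHZ1 and YPT31, convergent neighbours whose ends share the gap between them, and to SHG1 and GPI19. CHZ1, a chaperone of histone H2A.Z, had 0.845 and 0.71 at its end with auxin, against 0.376 and 0.308 without OsTIR1. GPI19, which acts in the synthesis of glycolipid anchors, had 1.23 and 1.27 with auxin, against 2.29 and 2.46 without OsTIR1. The calls of gene ends depended on the fit: 15 were higher and 1404 lower when libraries were scaled to their median body, 125 higher and 981 lower with fragment length as a covariate, 92 higher and 956 lower over all 11 libraries, 18 higher and 211 lower without the auxin library of culture A, 88 higher and 661 lower without that of culture B, and 0 without either no-OsTIR1 library. For promoters, 30 were higher and 207 lower over all 11 libraries, 41 were higher and 411 lower without the auxin library of culture B, and 4 higher and 68 lower without the no-OsTIR1 library of culture A.

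Gene bodies gained coverage. Limma called 1218 of 5958 bodies higher with auxin (20.4% of those tested) and 188 lower (3.16%), with a median change of 0.10. Both auxin libraries lay above both no-OsTIR1 libraries at 46.8% of bodies and below them at 19.7%. Leaving out the auxin library of culture A, whose auxin state is in doubt, or the no-OsTIR1 library of culture B, left 0 calls, with 1735 and 1403 bodies at an unadjusted p under 0.05. Without the auxin library of culture B there were 459 higher and 58 lower. Scaling to the median body gave 727 higher and 665 lower, with a median change of -0.04, and quantile normalization gave 504 higher and 256 lower, with a median of -0.03, so the excess of higher calls was smaller under both scalings. Over all 11 libraries 2050 were higher and 619 lower, and with the digestion index as a covariate in those libraries 770 were higher and 804 lower. The groups as the labels give them set 1 auxin library, heavy by its file name, against the light no-OsTIR1 libraries. There the median change was 0.40.

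The gain lay in the inner part of the ORF. Over 3570 ORFs of at least 1000 bp, cut into 10 equal parts, part 5 averaged 0.738 and 0.770 with auxin, 0.684 untreated, and 0.640 and 0.607 without OsTIR1. In part 10 the groups came close, at 1.162 and 1.088 with auxin, 1.16 untreated, and 1.198 and 1.188 without OsTIR1. The differences between genes narrowed: the SD of log2 body coverage was 0.392 and 0.381 with auxin, 0.466 untreated, and 0.478 and 0.550 without OsTIR1. Heavy digestion gave a lower SD in every state: 0.269 and 0.268 with auxin, 0.305 and 0.308 untreated, and 0.295 and 0.289 without OsTIR1. The heavy no-OsTIR1 libraries also averaged 1.01 and 0.957 in part 5. How far the degree of digestion accounts for these changes was not tested. In the quintile of bodies with the lowest mean coverage over all 11 libraries the median change was 0.28 (452 of 1192 higher, 0 lower). In the highest quintile it was -0.08 (67 higher, 129 lower). Among all bodies 20.4% were higher and 3.16% lower. The ranking used the compared libraries too, so the quintiles are no separate evidence beside the narrower spread. Of ORFs over 3000 bp 30.9% were called higher, and of those up to 500 bp 11.3%, a difference that was not tested, and the median change of their ends was -0.34 and -0.14 in the same classes. These classes were chosen after seeing the data.

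**Figure D3:**
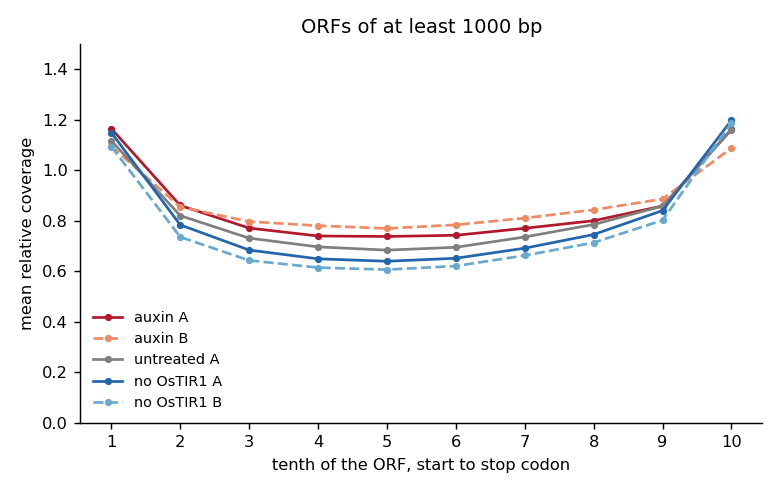
Mean relative coverage (y axis) in 10 equal parts (x axis, start to stop codon) of 3570 ORFs of at least 1000 bp in the 5 light libraries. In the middle parts both auxin lines lie highest, the untreated line next and both no-OsTIR1 lines lowest.

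BDF1, EAP1 and MSB2 were among the 10 bodies with the largest rises. BDF1, a bromodomain protein that binds acetylated histones, had 0.719 and 0.734 with auxin, 0.327 untreated, and 0.292 and 0.242 without OsTIR1 (log2 change 1.17 ± 0.095, limma adjusted p = 0.00727). EAP1, which binds the cap-binding factor eIF4E, had 0.962 and 0.886 with auxin, 0.423 untreated, and 0.391 and 0.352 without OsTIR1. MSB2, a mucin of the cell surface that signals in the osmosensing and filamentous growth pathways, had 0.879 and 0.809 with auxin, against 0.372 and 0.311 without OsTIR1. In each of them the untreated library lay near the no-OsTIR1 libraries, and the auxin libraries stood at more than the highest of these. LSO2, RPL24B, UTH1, ECM33, PMA1 and ARC19 were also among the 10 largest rises, between 0.99 and 1.18 on the log2 scale.

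The bodies with the largest falls were mostly short. YBR072C-A had 1.76 and 1.62 with auxin, 2.18 untreated, and 3.18 and 3.90 without OsTIR1, a change of -1.02 ± 0.12 (limma adjusted p = 0.00727). It lies 185 bp beyond the stop codon of HSP26, a small heat shock protein, whose gene-end window reaches into it. BNA7, an enzyme of NAD synthesis from tryptophan, had 1.07 and 1.05 with auxin, 1.72 untreated, and 1.75 and 1.97 without OsTIR1. POP4, a subunit of RNase P and RNase MRP, fell by 0.66 on the log2 scale. MRP35, YCR085W, YHR022C-A, YHR214C-D, CMI8, YGL194C-A and EMI1 completed the 10 largest falls, between -0.66 and -0.85.

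Of 138 cytosolic ribosomal protein genes, 103 rose and 0 fell, against 20.4% and 3.16% of all bodies, with a median of 0.50 against 0.10. Leaving out 1 library kept this median between 0.42 and 0.62, and a pseudocount of 1 brought it to 0.22, but 0 were called without the auxin library of culture A or the no-OsTIR1 library of culture B, and 57 without the auxin library of culture B. Quantile normalization gave 46 calls and a median of 0.31. The digestion index as a covariate, with light and heavy pooled, gave 102 calls and a median of 0.26. The same 11 libraries by file group, without the index and in the light contrast, gave 125. The name pattern of this list also took RPP1, which encodes a subunit of RNase P and is no ribosomal protein. RPL24B, a protein of the large ribosomal subunit, had 0.907 and 0.545 with auxin, 0.271 untreated, and 0.354 and 0.209 without OsTIR1. The promoters of the list had a median change of -0.15, near the -0.19 of all promoters, and their ends 0.03, against -0.22 for all ends. Many of these genes have a near-identical copy, and how reads that fit both were placed is not given in the sources used here.

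Of 19 genes of glycolysis and alcohol fermentation, 13 rose and 0 fell, against 20.4% and 3.16% of all bodies, with a median of 0.58. The median was 0.24 with a pseudocount of 1, 0.32 with quantile normalization and 0.18 with the digestion index as a covariate (11 higher, 1 lower), and 0 were called without the auxin library of culture A or the no-OsTIR1 library of culture B. PDC1, the main pyruvate decarboxylase, had 1.09 and 0.942 with auxin, 0.551 untreated, and 0.584 and 0.4 without OsTIR1. PGK1, phosphoglycerate kinase, had 0.813 and 0.756 with auxin, 0.386 untreated, and 0.451 and 0.308 without OsTIR1. HXK1, a hexokinase, had 0.775 and 0.68 with auxin and 0.834 and 0.735 without OsTIR1, and did not pass (adjusted p = 0.51, limma).

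PMA1, the proton pump of the plasma membrane, rose to 1.04 and 0.971 with auxin, against 0.546 untreated and 0.543 and 0.382 without OsTIR1. TEF1 and TEF2, 2 copies of the gene for elongation factor 1 alpha, rose by 0.81 and 0.74 on the log2 scale. CCW12, a cell wall mannoprotein, had 1.43 and 1.13 with auxin, 1.14 untreated, and 1.15 and 0.803 without OsTIR1, and did not pass (adjusted p = 0.161, limma).

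The same 20.4% higher and 3.16% lower of all bodies stand beside the counts of the next 3 lists, and in each of them 0 were called without the auxin library of culture A or the no-OsTIR1 library of culture B. Of 20 heat shock genes, 10 rose and 0 fell, with a median of 0.35. That median was 0.15 with a pseudocount of 1 or with quantile normalization, and 0.054 with the index as a covariate (7 higher, 2 lower). The cytosolic Hsp70 genes SSA1 and SSA2 rose by 0.85 each, while HSP12 and HSP26 changed by -0.18 and -0.16 and did not pass. Of 35 respiratory chain genes, 14 rose and 1 fell, with a median of 0.34, which was 0.15 with a pseudocount of 1, 0.17 with quantile normalization and 0.14 with the index as a covariate. COX12, a subunit of cytochrome c oxidase, rose by 0.92, and CYC7, an isoform of cytochrome c, fell by 0.32. Of 10 histone genes, 3 rose, a share near that of all bodies, HTB1 (histone H2B) by 0.64 and HTZ1 (H2A.Z) by 0.48 among them.

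The other lists lay nearer to the background, which was 20.4% higher and 3.16% lower among all bodies. Of 12 genes of the phosphate regulon, 2 rose, with a median of 0.04. Of 24 meiosis genes, 2 rose and 2 fell, with a median of -0.06, and MEI4, which acts in meiotic recombination, fell by 0.39. Of 7 hexose transporters 2 rose, the near-identical HXT6 and HXT7, by 0.44 each.

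**Figure D4:**
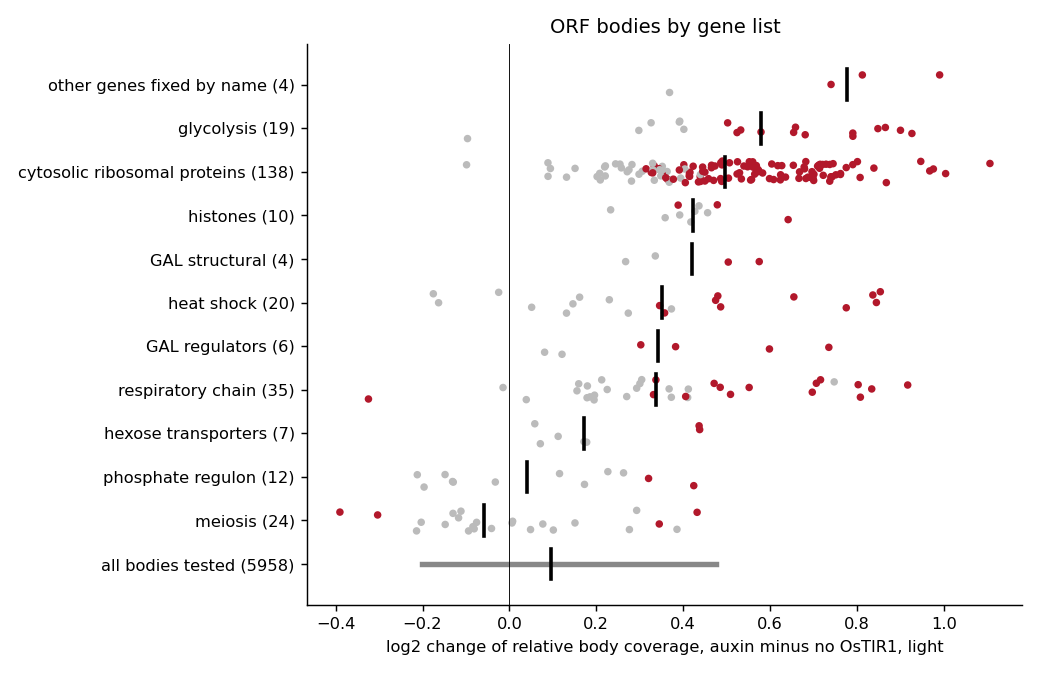
Log2 change of relative body coverage, auxin minus no OsTIR1, for each gene (points; red where limma's adjusted p is under 0.05) and its median (black bar) in 11 gene lists, with the number tested in brackets. The grey bar spans the 10th to the 90th percentile of all 5958 bodies. The ribosomal protein and glycolysis medians lie at 0.50 and 0.58, against 0.10 for all bodies.

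Galactose, on which these cells grew, is known to switch on the GAL genes, and no value in the files measured their transcription. At the promoters of the 4 structural genes (GAL1, galactokinase, GAL7, the transferase, GAL10, the epimerase, and GAL2, the galactose permease) both auxin libraries lay below both no-OsTIR1 libraries, as they did at 45.3% of all promoters. The median change was -0.55, and none passed the threshold. With the digestion index as a covariate all 4 promoters had the opposite sign, from 0.36 to 0.54, again with none past it. GAL1 had 1.24 and 1.47 at its promoter with auxin, 1.92 untreated, and 1.82 and 2.65 without OsTIR1 (adjusted p = 0.269, limma). The 668 bp between GAL10 and GAL1 had a mean coverage of 1.24 and 1.72 with auxin, 1.97 untreated, and 1.91 and 2.44 without OsTIR1, where the untreated library lay inside the range of the no-OsTIR1 libraries. The bodies of GAL7 and GAL2 rose. All 4 bodies had the opposite sign with the groups as labelled, where 1 auxin library, heavy by its file name, met light no-OsTIR1 libraries. GAL7 had 1.06 in both auxin libraries, 0.842 untreated, and 0.851 and 0.603 without OsTIR1. GAL1 and GAL10 had changes of 0.27 and 0.34 that did not pass (adjusted p = 0.132 and 0.0877, limma). Of 6 genes listed as GAL regulators, 4 rose, against 20.4% of all bodies. Not all of the 6 are regulators, since GCY1 is an enzyme. GAL3, the galactose sensor, rose by 0.74 and MTH1, a repressor of hexose transporter genes, by 0.60.

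**Figure D5:**
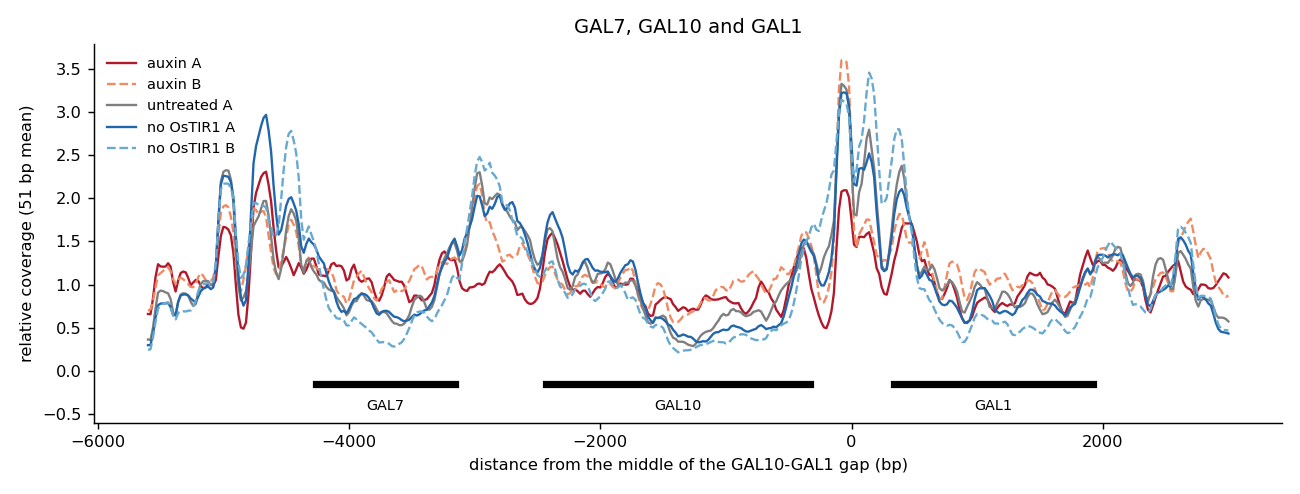
Relative coverage (y axis, smoothed) along GAL7, GAL10 and GAL1 (black bars) by distance from the middle of the GAL10-GAL1 gap, in the 5 light libraries. Over the gap the mean was 1.24 and 1.72 with auxin, 1.97 untreated, and 1.91 and 2.44 without OsTIR1, and the 2 auxin libraries differed from each other.

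The untreated group is 1 library, assumed to vary like the others, so calls against it rest on the spread within the other groups. Against it, limma called 127 bodies higher with auxin and 2 lower (2.13% and 0.0336%), but 0 promoters and 0 gene ends, with 95 and 280 at an unadjusted p under 0.05. Of these body calls 0 remained with a pseudocount of 1 or 0.01, with no filter on low values, or without either auxin library. Untreated OsTIR1 against no OsTIR1 gave no call by limma in any class (0 promoters, 0 gene ends, 0 bodies), with unadjusted p under 0.05 at 25, 20 and 68 of them. These comparisons share libraries with the main one. The auxin effect was higher in light than in heavy digestion at 255 bodies (4.28% of 5959, limma interaction term) and lower at 20 (0.336%), with 0 promoters and 0 gene ends called. The changes in light digestion were set against those between the same states in heavy digestion, which share no library but come from the same culture letters: across features, r was 0.594 for 5958 bodies, 0.280 for 5961 gene ends and 0.198 for 5958 promoters.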

How the data were processed

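The authors deposited, for each library and contig, whole-number fragment coverage per base in JSON form, with a second list scaled per contig, which was not used. The authors' fragments were filtered to 95 to 225 bp, per the text in the deposited files; Bowtie2 and build sacCer3 come from the submitters' processing notes, and the handling of duplicates and of reads with several matches is not given in the sources used here. ORFs came from an annotation of the same assembly, with strand read from the W or C of the systematic name; 5962 of 6021 were kept, leaving out those within 1000 bp of a contig end and in the ribosomal DNA. Windows were averaged, divided by the nuclear mean, filtered at a mean of 0.1 and tested with limma 3.58.1 (lmFit, eBayes; R 4.3.3) on log2(value + 0.1) over the 5 light libraries with group means (2 residual degrees of freedom), two-sided, Benjamini-Hochberg adjusted over all features of a class, threshold 0.05. Log2 changes on this scale understate those of low features. Promoter and gene-end windows had a fixed length and were not cut where they ran into another ORF. The interaction used 8 libraries. Features and profiles were computed in Python 3.11.15 with numpy 2.4.6. The fit was tested on simulated data, where the share of false calls among bodies was above the nominal level. Coverage of neighbouring bases is not independent, so no counting interval is given.

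The members and lists were chosen with earlier results of these data known. Genes named were the 10 largest rises and 10 largest falls among called features whose groups do not overlap, or up to 5 with the lowest p where fewer than 5 were called, the genes of short lists, and extremes of the longer lists. Extending this to bodies, the body fits against the untreated library and for the interaction, the use of the highest point downstream of the stop codon, and the classes by length and level were chosen after seeing the data. A gene that the naming rule takes is not reported here.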

Additional observations from a re-analysis of the deposited data

Results flagged for a closer look

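The difference between auxin and no OsTIR1 differed between light and heavy digestion, by limma's interaction term, at 275 of 5959 bodies: the auxin effect was higher in light digestion at 255 and lower at 20 (4.28% and 0.336%). It did so at 0 promoters and 0 gene ends, with 520 and 595 at an unadjusted p under 0.05. Among the bodies named, the log2 difference between the effects (limma adjusted p 0.0405 to 0.0458) was 0.65 for BDF1, 0.82 for EAP1, 0.82 for ARC19, 0.48 for MTH1, 0.46 for GAL3, 0.76 for SSA1, 0.64 for SSA2 and 0.76 for GAL2. It was -0.64 for YBR072C-A, -0.65 for BNA7 and -0.56 for EMI1. These calls were few or absent under most other settings: between 0 and 3 remained called without any 1 of the 8 libraries other than the no-OsTIR1 light library of culture A, without which there were 783. No group had the 4 samples that a search for outlying samples needs.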

How the results depend on the processing

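The 6 values per library kept their direction under every alternative run, and none could pass the threshold. The digestion index was not used as a covariate for these values. Leaving out 1 library could not reverse them, since the groups do not overlap. It moved the promoter to body difference between -0.390 and -0.235, and the gene end difference between -0.436 and -0.236. The groups from the labels set 1 auxin library, heavy by its file name, against the light no-OsTIR1 libraries. Auxin and digestion cannot be told apart in that run, here and in the counts and signs below. The counts did not hold. Values are calls, with the cause not tested unless fewer libraries were used.

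For promoters, against 0 calls, there were 237 over all 11 libraries by file group, 115 with the digestion index, and 0 to 452 without 1 library. For gene ends, against 1 call, there were 0 with a pseudocount of 1, a filter at 0.5, quantile normalization, the labels' groups or a window of 150 bp, 5 with a window of 400 bp, 6 with trend and robust eBayes, 1419 with scaling to the median body, 1106 with fragment length, 1048 over all 11 libraries, 117 with the digestion index, and 0 to 749 without 1 library. For bodies, against 1406, there were 760 with quantile normalization, 2669 over all 11 libraries, 1 with the labels' groups, and 0 to 1082 without 1 library.

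Against the untreated library there were 0 to 3 promoters and 0 to 107 gene ends without 1 library, and 1 gene end with a pseudocount of 0.01, with scaling to the median body, with fragment length and over all 11 libraries. Against the main 129 bodies there were 0 with either other pseudocount, no filter, scaling, quantile normalization, fragment length, the labels' groups or without any 1 library, 356 with trend and robust eBayes and 1390 over all 11 libraries. For the interaction there were 0 to 6 promoters and 0 to 26 gene ends without 1 library, and 3 gene ends with a pseudocount of 0.01. Against 275 bodies there were 3 with a pseudocount of 1 or with fragment length, 2 with scaling, 1 with quantile normalization, 0 with the labels' groups, 791 over all 11 libraries, and 0 to 783 without 1 library.

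The replicate numbers of the labels and the culture letters pair the libraries in opposite ways, and neither is stated to mark a shared batch. Deviations from the group means correlated at 0.587 across promoters with libraries paired by letter. With 2 libraries a group, pairing by label number only flips the sign, to -0.587, and is no separate evidence. Which pairing is right was not tested. With the replicate block by label number, there was 1 promoter, 0 gene ends and 0 bodies, 0 bodies against the untreated library, and 1 body for the interaction. With the replicate block by culture letter there were 1618 promoters, 1745 gene ends and 2382 bodies, 752, 421 and 1264 against the untreated library, and 6 gene ends and 883 bodies for the interaction.

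Log2 changes of single genes reversed as follows. With scaling to the median ORF body, signs reversed for bodies GCY1 -0.052, PGM2 -0.0078, RPL41A -0.053, HXT3 -0.080, HXT4 -0.066, and for promoters ENO1 -0.043, HHT1 -0.046, HTZ1 -0.0064, HSC82 -0.019, PHM6 -0.10, PHO84 -0.0025, SPS4 -0.011, HXT7 -0.068, TEF1 -0.086, and for gene ends GAL3 -0.032, HSP10 -0.077, HSP30 -0.050, PHO84 -0.10, PHM6 -0.078. With quantile normalization, signs reversed for bodies GCY1 -0.090, PGM2 -0.10, HHO1 -0.075, TOP1 -0.019, and for promoters GCY1 0.12, HTB1 0.11, PHM6 -0.022, CCW12 0.13, and for gene ends MTH1 0.14, HTB1 0.11, HXT5 0.080, HXT4 0.17, HXT3 0.26, GAL1 0.15, TEF2 0.16, CCW12 0.082, TEF1 0.12. With fragment length as a covariate, signs reversed for promoters GCY1 0.023, HHT1 -0.013, HTZ1 -0.031, PHM6 -0.31, SPS4 -0.21, and for gene ends MTH1 0.15, TEF2 0.12, TEF1 0.065. With groups from the labels, all 11 libraries, signs reversed for bodies RPP1 0.40, RPL41A -0.44, HXK1 0.27, HSP26 0.36, PHO11 0.69, PHO12 0.70, SDH4 0.70, GAL7 -0.071, GAL10 -0.047, GAL1 -0.35, GAL2 -0.22, TOP2 0.31, and for promoters GAL4 -0.096, ENO1 -0.60, HHT1 -1.15, HTZ1 -0.0028, HSC82 -1.18, HSP82 -0.70, PHM6 -0.26, SPS4 -0.50, HXT7 -0.72, HXT2 -0.083, ATP2 -0.0084, QCR6 -0.58, PMA1 -0.73, TEF1 -2.07, and for gene ends GAL3 -0.97, RPL38 -0.081, TPI1 -0.50, HSP10 -0.31, HSP30 -0.43, PHO84 -0.78, PHM6 -0.43, MAM1 -0.22, REC102 -0.88, HXT7 -0.24, PMA1 -0.018, TOP1 -0.53, and for the meiosis body median 0.13. With the digestion index as a covariate, all 11 libraries, signs reversed for bodies PGM2 -0.089, GPM1 -0.016, HHO1 -0.017, TOP1 -0.068, and for promoters GAL80 0.19, GCY1 0.21, RPL11B 0.25, RPS10B 0.13, PFK2 0.044, ENO2 0.10, HHF2 0.051, HTB1 0.20, VTC4 0.099, PHM6 -0.19, PHO84 -0.039, SDH2 0.078, QCR8 0.15, GAL7 0.42, GAL10 0.36, GAL1 0.54, TEF2 0.53, GAL2 0.40, CCW12 1.08, and for gene ends GAL80 0.039, RPL7A 0.25, HTB1 0.19, HSP10 -0.031, SPR3 0.18, HXT4 0.17, HXT3 0.14, GAL7 0.11, GAL10 0.53, GAL1 0.45, TEF2 0.48, LEU2 0.023, GAL2 0.26, CCW12 0.55, TOP2 0.64, TEF1 0.21. With a window of 400 bp, signs reversed for promoters HSC82 -0.10, PHM6 -0.31, ATP2 -0.15, CCW12 0.0059, and for gene ends GAL3 -0.011, HXT3 0.15. With a window of 150 bp, signs reversed for gene ends PHM6 -0.032, TEF2 0.078, TEF1 0.20. Leaving out 1 library in turn, the changes ranged across 0 for bodies SDH4 from -0.13 to 0.10, TOP2 from -0.066 to 0.061, GCY1 from -0.032 to 0.19, HSP12 from -0.36 to 0.015, HSP26 from -0.35 to 0.026, and for promoters PHO84 from -0.020 to 0.28, GAL80 from -0.73 to 0.10, HXT7 from -0.078 to 0.22, TEF1 from -0.069 to 0.18, ATP2 from -0.0036 to 0.40, CCW12 from -0.28 to 0.019, GCY1 from -0.18 to 0.054, HHT1 from -0.045 to 0.23, HTZ1 from -0.085 to 0.34, PHM6 from -0.42 to 0.49, SPS4 from -0.31 to 0.56, and for gene ends MTH1 from -0.25 to 0.20, TEF2 from -0.20 to 0.16, GAL3 from -0.093 to 0.31, TPI1 from -0.066 to 0.43, CCW12 from -0.50 to 0.12, HSP10 from -0.0071 to 0.13, HXT3 from -0.29 to 0.22, TOP2 from -0.49 to 0.047, TOP1 from -0.088 to 0.38, HXT4 from -0.29 to 0.023, TEF1 from -0.19 to 0.099.

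With 2 residual degrees of freedom and 2 libraries a group, a count of calls says little of the number of features that differ.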
